A study of Mus musculus with 6 samples.

Results

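The 10 genes described here encode the 3 mouse TGF-beta ligands (*Tgfb1*, *Tgfb2*, *Tgfb3*), their 3 receptors (*Tgfbr1*, *Tgfbr2*, *Tgfbr3*) and the 4 latent TGF-beta binding proteins (*Ltbp1*, *Ltbp2*, *Ltbp3*, *Ltbp4*). They were picked by gene symbol, with earlier results of these data known. All 10 were found among the 19446 entries of the expression table. Each passed the filter on low values that left 15948 genes for testing.

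TGF-beta is made as a precursor, cut by furin, and secreted bound to its own propeptide as an inactive complex, which is joined in the cell to an LTBP and stored in the extracellular matrix until integrins or proteases release it. Free ligand brings the type II receptor TGFBR2 together with the type I receptor TGFBR1, which phosphorylates SMAD2 and SMAD3, while TGFBR3 (betaglycan) presents the ligand and is needed above all for TGF-beta2. In the heart this pathway is known for turning resident fibroblasts into contractile, matrix-producing myofibroblasts.

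Cardiac fibroblasts (CFs) of C57BL/6J mice aged 5 weeks were cultured and profiled by RNA-seq, in 2 groups: wild type (WT, 3 libraries) and CharmeKO (3 libraries), in which a polyadenylation signal was inserted into the *Charme* gene to cut short this long non-coding RNA. CFs of both groups grew out of fragments of atrial tissue pooled from littermates, on fibronectin in medium with 20% serum, and the labels name no treatment with TGF-beta. Groups and replicate numbers 1 to 3 follow the sample labels. What libraries of the same number have in common is not given there. P-values therefore measure the spread between these libraries only.

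The libraries held 38330019 to 46797446 reads assigned to genes, and the member with the fewest reads in any library had 437, so counting error was small beside the differences between libraries. The feature taken as the added *Charme* entry, which is an inference, had 5, 15 and 11 reads in WT and 0, 6 and 3 in CharmeKO. It was lower in CharmeKO within each replicate number, but CharmeKO 2 lay above WT 1 and all counts were low, so this is a weak check of the genotypes, which are used here as labelled. All 8 fibroblast markers were present, with a summed level of 20438 to 51459 reads relative to the library total (CPM) in WT and 28625 to 42755 CPM in CharmeKO. The endothelial (5 of 7 listed), cardiomyocyte (4 of 7) and haematopoietic lists (7 of 8) summed to 1.00 to 8.14, 3.30 to 18.6 and 17.5 to 392 CPM over the 6 libraries, with *Cdh5*, *Ryr2*, *Ptprc* and *Itgam* at 0 reads in at least 1 library. All 8 smooth muscle and pericyte markers were present and summed to 94.7, 122 and 625 CPM in WT and 94.2, 65.8 and 101 CPM in CharmeKO, with *Abcc9* at 0 in at least 1 library. The 6 mesothelial and epicardial markers summed to 310, 39.4 and 64.8 CPM in WT and to 345, 91.1 and 21.7 CPM in CharmeKO. In these bulk samples fewer cells of a type cannot be told apart from less RNA per cell.

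Sequences are shown for pieces of some of these genes as a description, and no expression result rests on them. The first set consists of the quantitative PCR oligos with which the study measured the signalling receptor pair, located by exact match to GENCODE M21 transcripts (GRCm38). The *Tgfbr1* pair lies in exon 3 of 9, forward at chr4:47393325-47393345 and reverse at chr4:47393404-47393424, with an amplicon of 100 bases found in 4 of the 5 annotated transcripts. The *Tgfbr2* pair joins exon 4 (chr9:116129883-116129902) and exon 5 (chr9:116110266-116110285) of 8 on the minus strand, with an amplicon of 125 bases in 2 of 2 transcripts, and neither pair matched another gene.
Tgfbr1 forward: tctgcattgcacttatgctga
Tgfbr1 reverse: aaagggcgatctagtgatgga
Tgfbr2 forward: tgaaggaaaagaaaagggcg
Tgfbr2 reverse: aatgaccaacaacaggtcgg

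The second set consists of the 250 bases before the transcription start (RefSeq, GRCm38.p6) of *Tgfb1* and *Tgfb2*, the ligands whose balance is compared below, and of *Ltbp2*, the member that varied most between libraries. RefSeq promoters were at hand for 8 of the 10 members, *Tgfb3* and *Tgfbr3* being those without one. Capitals mark matches, on either strand, to the TATA box TATAAA, the GC box GGGCGG (reverse CCGCCC), the E-box CACGTG and the Smad-binding sequence CAGACA (reverse TGTCTG), and the cAMP response element TGACGTCA was also searched. The windows are chr7:25686752-25687001 on the plus strand for *Tgfb1*, chr1:186705990-186706239 on the minus strand for *Tgfb2*, and chr12:84876492-84876741 on the minus strand for *Ltbp2*, each written 5′ to 3′ along the gene.
Tgfb1: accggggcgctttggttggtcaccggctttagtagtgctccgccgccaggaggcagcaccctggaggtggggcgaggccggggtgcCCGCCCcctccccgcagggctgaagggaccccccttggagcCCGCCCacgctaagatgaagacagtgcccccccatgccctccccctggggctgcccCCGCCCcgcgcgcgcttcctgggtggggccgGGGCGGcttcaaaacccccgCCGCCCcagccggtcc
Tgfb2: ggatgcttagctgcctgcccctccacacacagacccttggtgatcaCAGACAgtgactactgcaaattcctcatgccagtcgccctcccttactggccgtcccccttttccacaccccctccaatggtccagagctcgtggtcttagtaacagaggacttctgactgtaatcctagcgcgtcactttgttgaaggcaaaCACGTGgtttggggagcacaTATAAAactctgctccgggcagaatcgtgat
Ltbp2: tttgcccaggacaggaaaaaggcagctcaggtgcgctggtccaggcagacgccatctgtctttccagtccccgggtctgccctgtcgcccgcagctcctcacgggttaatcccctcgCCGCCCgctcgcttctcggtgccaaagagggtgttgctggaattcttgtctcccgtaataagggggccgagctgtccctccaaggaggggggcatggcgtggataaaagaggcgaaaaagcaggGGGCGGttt

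The *Tgfb1* window was 75.2% G+C with 5 GC boxes and no TATA box, against a median G+C of 52.0% over 27025 promoter windows. The *Tgfb2* window was 53.6% G+C and held a TATA box 31 to 26 bases before the start, an E-box 51 to 46 bases before it and 1 Smad-binding sequence. The *Ltbp2* window (61.6% G+C) held 2 GC boxes. Of all promoter windows, 13.0% held TATAAA, 32.9% GGGCGG, 6.05% CACGTG, 17.1% CAGACA and 1.62% TGACGTCA, the last of which was found among the members at the first of 2 *Ltbp1* start sites. Such matches of letters are a description and not evidence of binding.

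The comparison of CharmeKO with WT asked whether cultured CFs labelled CharmeKO express the TGF-beta system at another level than those labelled WT. No member passed the test: 0 of 10 had an adjusted p under 0.05 in limma, where 0% of all tested genes did, and each member's adjusted p was 0.9999. Taken without adjustment, 0 members and 143 genes of the whole table (0.897%) had a limma p under 0.05. The DESeq2 Wald test called 8 genes (0.0504% of those tested, while 1.8% had an unadjusted p under 0.05) and edgeR 0 (158 genes at an unadjusted p under 0.05), and none of those calls was a member. With the replicate number as a block, DESeq2 called 0.401% of all genes and limma 0%, and again 0 members. An unadjusted p under 0.05 was then reached by 2 members in limma (5.37% of all genes) and by 2 in DESeq2 (5.59%). The mean was lower in CharmeKO for 6 members and higher for 4, where 49.6% of all genes were lower. The median log2 fold change of the 10 was -0.13, beside 0.0022 over all genes. The WT and CharmeKO values overlapped for all 10, whereas 4.11% of all genes had values that did not (1.98% lower and 2.14% higher in CharmeKO).

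**Figure D1:**
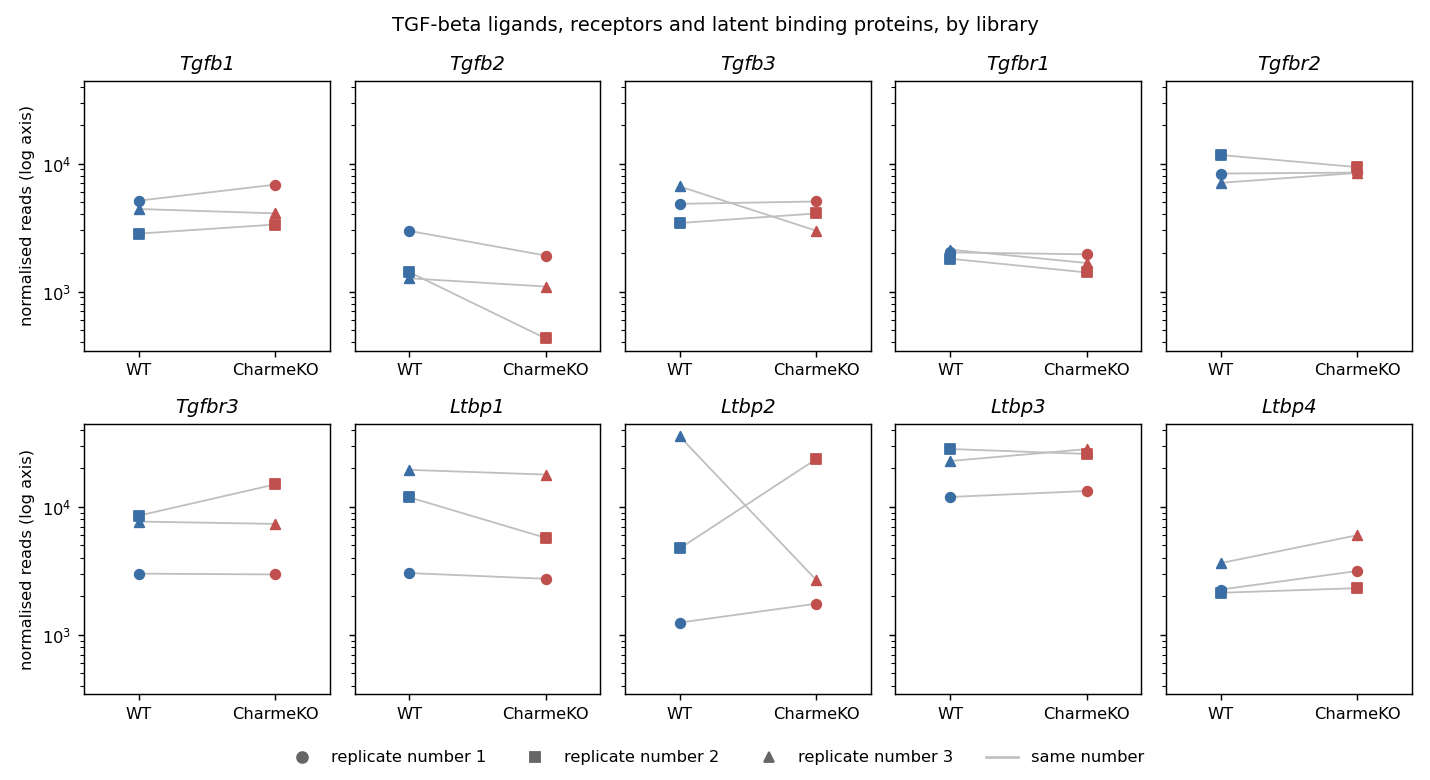
Normalised reads (log axis) of the 10 genes in each WT and CharmeKO library, with symbols for the replicate number and grey lines joining libraries of the same number. The genotypes overlap in every panel, *Tgfb2*, *Tgfbr1* and *Ltbp1* slope down in all 3 pairs, *Ltbp4* slopes up, and the *Ltbp2* lines cross.

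*Tgfb2* (chromosome 1, 186622792 to 186705989, minus strand, GRCm38) is the ligand known for its role in the development of the heart's valves and outflow tract. It had the lowest p of the 10 in limma without a block, while with the replicate block that of *Ltbp4* was lower. *Tgfb2* had 2977, 1418 and 1268 normalised reads in WT 1, 2 and 3 and 1909, 430 and 1093 in CharmeKO 1, 2 and 3. The level was lower in CharmeKO within each number, by a factor of 0.641, 0.303 and 0.862, but CharmeKO 1 lay above WT 2 and WT 3, so the groups overlapped. The log2 fold change was -0.86 (SE 0.592, 95% interval -2.28 to 0.56, limma unadjusted p = 0.193). It was -0.28 without CharmeKO 2 and -1.35 without CharmeKO 1 (limma unadjusted p = 0.0470 and adjusted p = 0.997 for the latter). With the replicate number as a block the unadjusted limma p was 0.0464, with an adjusted p of 0.7997, and in DESeq2 the adjusted p was 0.471. *Tgfb2* was highest in the libraries numbered 1 in both genotypes. The mesothelial and epicardial markers also had their highest sums there (310 and 345 CPM, beside 21.7 to 91.1 in the other libraries). Of these markers, *Msln*, *Upk3b*, *Lrrn4* and *Upk1b* were highest in the libraries numbered 1. The list was not uniform, as *Wt1* was lowest in WT 1 and highest in CharmeKO 2, and *Krt19* was highest in WT 3. Within number 2 the sum of this list was higher in CharmeKO (91.1 CPM) than in WT (39.4 CPM), while *Tgfb2* was lower. The endothelial, cardiomyocyte and haematopoietic sums were also highest in number 1 of each genotype. The part of any of these markers in the *Tgfb2* level was not tested.

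*Tgfb1* (chromosome 7, 25687002 to 25705077, plus strand) encodes the ligand most closely tied to fibrosis. Its values were 5131, 2835 and 4415 normalised reads in WT and 6848, 3340 and 4081 in CharmeKO. The highest library was CharmeKO 1 and the lowest WT 2, and in both genotypes number 1 was highest and number 2 lowest. The estimate was a log2 fold change of 0.18 (SE 0.340, 95% interval -0.63 to 0.99, limma unadjusted p = 0.614). It turned to -0.12 without CharmeKO 1 and to -0.07 without WT 2. The haematopoietic markers summed to 183, 100 and 39.0 CPM in WT and to 392, 303 and 17.5 CPM in CharmeKO, higher in CharmeKO within numbers 1 and 2 and lower within number 3. The differences of *Tgfb1* within numbers had the same signs (0.42, 0.24 and -0.11 on the log2 scale). Between numbers the order differed. In both genotypes the marker sum was lowest in number 3, while *Tgfb1* was lowest in number 2. The part of these markers in the *Tgfb1* level, or in the ratios to it given next, was not tested.

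*Tgfb3* (chromosome 12, 86056745 to 86079041, minus strand), the ligand known from palate fusion, had 4844, 3431 and 6628 normalised reads in WT and 5056, 4077 and 2987 in CharmeKO. WT 3 was the highest library and CharmeKO 3, of the same number, the lowest. The fitted log2 fold change was -0.28 (SE 0.304, 95% interval -1.01 to 0.45, limma unadjusted p = 0.391). It rested on number 3, being -0.05 without WT 3, and the differences within numbers 1 and 2 were 0.06 and 0.25 on the log2 scale.

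The balance of the ligands was compared within each library, which removes the library scaling. The log2 ratio of *Tgfb2* to *Tgfb1* reads was -0.79, -0.999 and -1.80 in WT 1, 2 and 3 and -1.84, -2.96 and -1.90 in CharmeKO. All 3 CharmeKO ratios lay below all 3 WT ratios, but WT 3 and CharmeKO 1 were close to each other. The means were -1.19 ± 0.535 and -2.23 ± 0.627 (SD, n = 3 each), a difference of -1.04, with an exact permutation p of 0.1, the smallest that 3 against 3 libraries can give (0.4 after Benjamini-Hochberg adjustment over the 4 ratios compared). Within numbers the difference was -1.06, -1.96 and -0.10, so number 3 hardly contributed, and the exact paired test gave its smallest possible p of 0.25. Leaving out single libraries moved the difference from -1.34 to -0.68.

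The log2 ratio of *Tgfb3* to *Tgfb1* was 0.26 ± 0.335 in WT and -0.20 ± 0.422 in CharmeKO (SD, n = 3 each, exact permutation p = 0.3). The difference of -0.46 moved from -0.70 without CharmeKO 2 to -0.30 without WT 3. Per kilobase of exon, *Tgfb1* made up 34.3, 30.9 and 28.7% of the ligand reads in WT and 42.7, 34.1 and 43.0% in CharmeKO. *Tgfb2* made up 17.3, 13.4 and 7.17% in WT and 10.4, 3.82 and 10.04% in CharmeKO. *Tgfb3* had the remainder, 56.1 ± 7.93% in WT and 52.0 ± 8.73% in CharmeKO, and was the most abundant ligand per length in all 6 libraries.

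**Figure D2:**
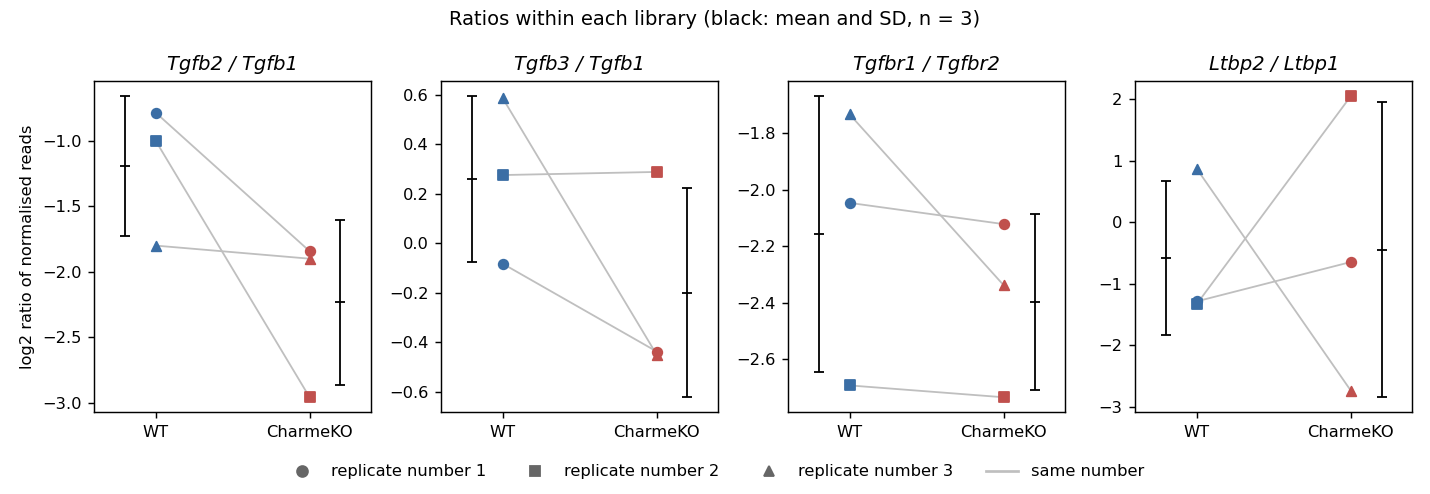
Log2 ratio of normalised reads of 4 pairs of genes within each library (each panel has its own axis), with lines joining libraries of the same number and the mean and SD (n = 3) beside each group. The *Tgfb2* to *Tgfb1* ratios of CharmeKO (-1.84 to -2.96) lie below those of WT (-0.79 to -1.80), while the groups overlap in the other panels.

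Of the receptors, *Tgfbr1* (chromosome 4, 47353222 to 47414931, plus strand), the signalling type I kinase, varied least between libraries of all members. It had 2022, 1804 and 2125 normalised reads in WT and 1953, 1410 and 1671 in CharmeKO. CharmeKO 2 and CharmeKO 3 lay below all WT libraries and CharmeKO 1 lay among them. For this gene the log2 fold change was -0.25 (SE 0.179, 95% interval -0.68 to 0.18, limma unadjusted p = 0.207), with -0.05, -0.36 and -0.35 within numbers 1, 2 and 3. Without CharmeKO 2 it was -0.13.

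*Tgfbr2* (chromosome 9, 116084293 to 116175360, minus strand), the type II kinase that binds the ligand first, had 8356, 11671 and 7068 normalised reads in WT and 8502, 9389 and 8454 in CharmeKO. The CharmeKO libraries lay close together and within the WT range. The log2 fold change was -0.010 (SE 0.220, 95% interval -0.54 to 0.52, limma unadjusted p = 0.964), and its sign turned with the scaling (0.024 when scaled by library totals) and without WT 2 (0.19), CharmeKO 1 (0.01) or CharmeKO 3 (0.02). The log2 ratio of *Tgfbr1* to *Tgfbr2* was -2.16 ± 0.489 in WT and -2.40 ± 0.311 in CharmeKO (SD, n = 3 each, exact permutation p = 0.4). The difference of -0.24 was -0.51 without WT 2 and -0.03 without WT 3.

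*Tgfbr3* (chromosome 5, 107106570 to 107289629, minus strand) overlaps 3 other annotated genes on its strand, so some of its reads may have been lost in counting. It had 3002, 8529 and 7668 normalised reads in WT and 2958, 14968 and 7344 in CharmeKO. Both libraries numbered 1 were low, CharmeKO 2 was the highest, and the numbers 1 and 3 differed little between genotypes. The estimate was a log2 fold change of 0.24 (SE 0.661, 95% interval -1.34 to 1.83, limma unadjusted p = 0.725), and it was -0.32 without CharmeKO 2 and -0.23 without WT 1.

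**Figure D3:**
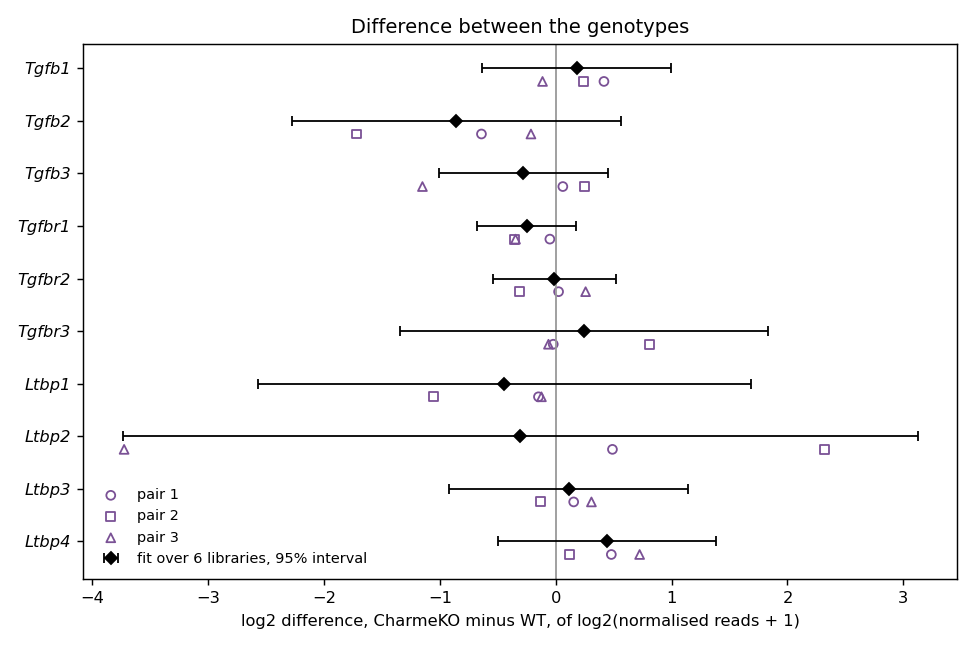
Log2 difference of log2(normalised reads + 1), CharmeKO minus WT, for the 10 genes, as the limma estimate over 6 libraries with its 95% interval (black) and as the difference within each same-numbered pair (open symbols). The limma fit did not use the pairs. Every interval spans 0, the narrowest is that of *Tgfbr1* (-0.68 to 0.18) and the widest that of *Ltbp2* (-3.73 to 3.12).

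The LTBPs varied more with the replicate number than with the genotype. *Ltbp3* (chromosome 19, 5740904 to 5758532, plus strand), which binds latent TGF-beta, had the highest mean level per length of the 10. It had 11931, 28282 and 22794 normalised reads in WT and 13287, 25874 and 28227 in CharmeKO. Both libraries numbered 1 were the lowest of their genotype and lay far below the other 4, with no separation of WT from CharmeKO. The fitted log2 fold change was 0.11 (SE 0.430, 95% interval -0.92 to 1.14, limma unadjusted p = 0.803), with the other sign without WT 1 (-0.25), CharmeKO 2 (-0.03) or CharmeKO 3 (-0.09).

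*Ltbp4* (chromosome 7, 27305136 to 27337692, minus strand), known for elastic fibre assembly and for binding TGF-beta1, was the member that was higher in CharmeKO within every number. It had 2254, 2127 and 3625 normalised reads in WT and 3145, 2312 and 5990 in CharmeKO. CharmeKO 3 was the highest library and WT 3 stood above the other WT libraries and CharmeKO 1 and 2. For this gene the log2 fold change was 0.44 (SE 0.391, 95% interval -0.50 to 1.38, limma unadjusted p = 0.298), and 0.06 without CharmeKO 3. With the replicate block the unadjusted limma p was 0.0310 and the adjusted p 0.7997, and in DESeq2 the adjusted p was 0.643.

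*Ltbp1* (chromosome 17, 75005568 to 75392512, plus strand, with 1 other gene on its strand inside it) encodes the main LTBP that tethers latent TGF-beta to fibronectin and fibrillin. It had 3032, 11859 and 19442 normalised reads in WT and 2735, 5711 and 17851 in CharmeKO. In both genotypes number 1 was lowest and number 3 highest, and the difference within a number was largest for number 2 (-1.05 on the log2 scale, beside -0.15 and -0.12). The log2 fold change was -0.44 (SE 0.888, 95% interval -2.57 to 1.69, limma unadjusted p = 0.635), and it was 0.12 without WT 3 and 0.19 without CharmeKO 1.

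*Ltbp2* (chromosome 12, 84783212 to 84876532, minus strand) encodes the LTBP that does not bind latent TGF-beta and sits on fibrillin microfibrils. It had 1244, 4724 and 35431 normalised reads in WT and 1747, 23599 and 2681 in CharmeKO. The highest library held 28.5 times the reads of the lowest, and the high libraries were WT 3 and CharmeKO 2, which share neither genotype nor number. The estimate was a log2 fold change of -0.30 (SE 1.43, 95% interval -3.73 to 3.12, limma unadjusted p = 0.838), with differences of 0.49, 2.32 and -3.72 within numbers 1, 2 and 3. It was 0.99 without WT 3, 0.42 without CharmeKO 1 and 0.12 without CharmeKO 3. The smooth muscle and pericyte markers had their highest sum in WT 3 (625 CPM) and their lowest in CharmeKO 2 (65.8 CPM), the libraries with the most *Ltbp2*. *Cnn1* gave 346.5 CPM of the WT 3 sum, while *Rgs5*, *Kcnj8* and *Abcc9* were highest in WT 2. The part of these markers in the *Ltbp2* level was not tested. The log2 ratio of *Ltbp2* to *Ltbp1* was -0.58 ± 1.25 in WT and -0.44 ± 2.40 in CharmeKO (SD, n = 3 each, exact permutation p = 1).

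The 3 genes of the whole table whose pattern over the 6 libraries was most like that of *Ltbp2* were *Hoxc5*, *Hoxc4* and *Nos2*, with root mean square differences of the centred log2 values of 0.294, 0.519 and 0.603. *Hoxc5* (chromosome 15), a homeobox gene of the HoxC cluster, had 16.7, 67.3 and 338 normalised reads in WT and 20.2, 200 and 25.2 in CharmeKO. *Hoxc4*, its neighbour in the cluster, had 21.7, 113 and 399 in WT and 54.8, 298 and 40.9 in CharmeKO. *Nos2*, the inducible nitric oxide synthase, had 0, 4.27 and 22.0 in WT and 0, 47.2 and 1.74 in CharmeKO. All 3 were highest in WT 3 and CharmeKO 2, as *Ltbp2* was. The annotation of *Hoxc5* overlaps 6 other genes on its strand, so its reads are uncertain, and *Nos2* was at or under the limit of 3 reads in 3 libraries.

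**Figure D4:**
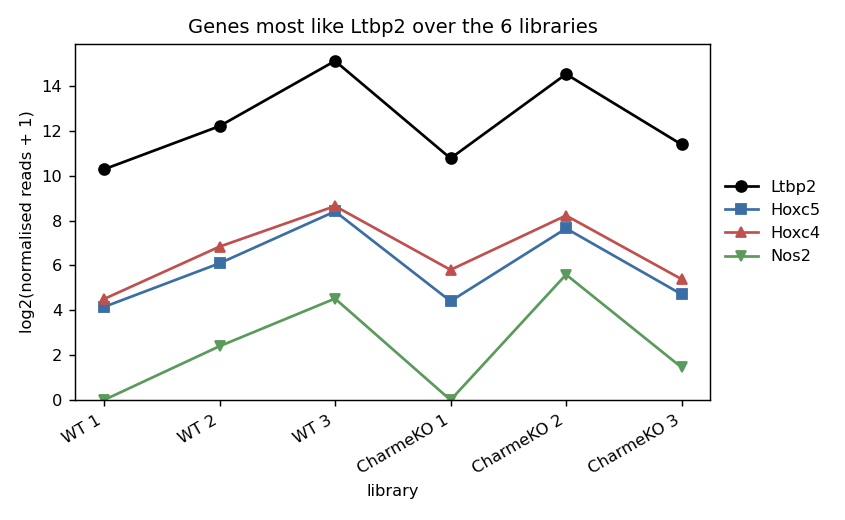
Log2(normalised reads + 1) of *Ltbp2* and of the 3 genes with the most similar pattern, in each of the 6 libraries (lines only guide the eye). All 4 genes peak in WT 3 and CharmeKO 2 and are low in WT 1, CharmeKO 1 and CharmeKO 3.

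The members were then compared with each other across libraries. The replicate number held a larger share of the variance of the log2 values than the genotype in 10 of 10 members. It has 2 degrees of freedom against 1. Pooled over all tested genes the shares were 67.7% and 10.6%, a sum that weights genes of large variance most. The share of single genes with this order was not counted. The share of the number was highest for *Ltbp3* (95.7%), *Ltbp1* (92.7%) and *Tgfbr3* (92.1%) and lowest for *Tgfb3* (19.3%), where 67.0% was left to neither. In *Ltbp2* the number held 51.5%, and 47.8% was left to neither. The genotype held most in *Tgfbr1* (40.3%) and *Tgfb2* (25.3%) and 0.0549% in *Tgfbr2*. The SD of log2 values over the 6 libraries lay above the median of all genes (0.417) in 7 members, and that of *Ltbp2* (2.00) was at percentile 97.1.

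Within both genotypes number 1 was the lowest library for *Tgfbr3*, *Ltbp1*, *Ltbp2* and *Ltbp3* (26.5% of all genes did the same) and the highest for *Tgfb1* and *Tgfb2* (27.6%). *Tgfb1* and *Tgfb2* were thus high where 3 of the LTBPs were low. The root mean square difference of the centred log2 values of a pair of members was smallest for *Tgfb3* and *Tgfbr1* (0.295). It was largest for *Tgfb2* and *Ltbp2* (2.51). This measure grows with the spread of the genes, so members that vary little come out close whatever the shape of their patterns. Of the members, *Tgfb2*, *Tgfbr1* and *Ltbp1* were lower in CharmeKO within all 3 numbers, as were 14% of all genes, and *Ltbp4* was higher within all 3, as were 16.4%.

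**Figure D5:**
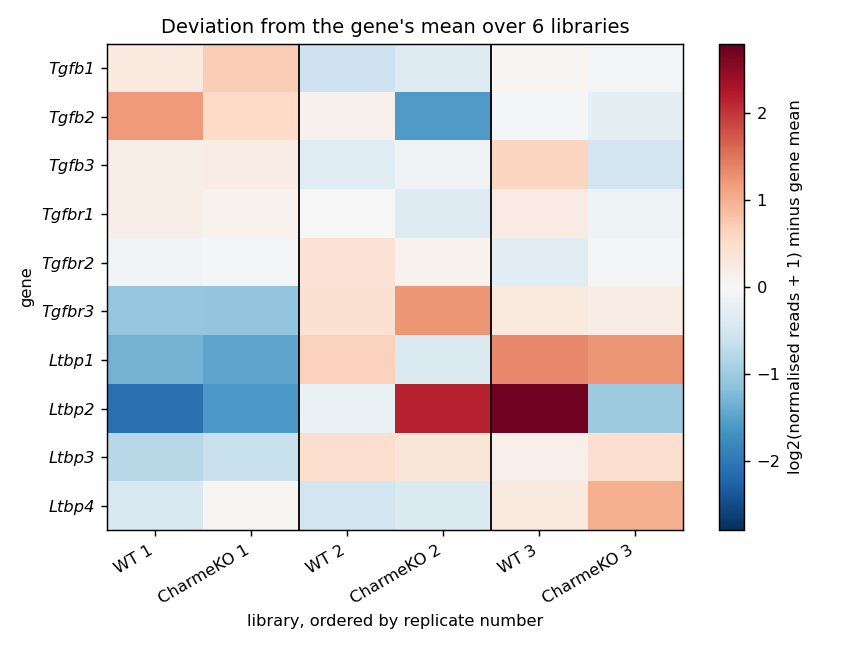
Deviation of log2(normalised reads + 1) from each gene's mean over the 6 libraries (colour, red above and blue below), with libraries ordered by replicate number. *Tgfb1* and *Tgfb2* are above their means and *Tgfbr3*, *Ltbp1*, *Ltbp2* and *Ltbp3* below theirs in both libraries numbered 1, and *Ltbp2* is highest in WT 3 and CharmeKO 2.

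Levels of different genes were compared per kilobase of exon. *Ltbp3* had 2396 ± 811 normalised reads per kilobase (SD over the 6 libraries), *Ltbp2* 1414 ± 1765, *Tgfb3* 1331 ± 387, *Tgfbr3* 1132 ± 675 and *Tgfbr2* 1088 ± 189. Below these came *Ltbp1* with 945 ± 692, *Tgfb1* with 881 ± 283, *Ltbp4* with 502 ± 227, *Tgfbr1* with 280 ± 40.0 and *Tgfb2* with 262 ± 149. Of the 9 neighbours in this order only *Ltbp4* and *Tgfbr1* kept their order in 6 of 6 libraries, and *Tgfb1* lay above *Ltbp4* in 5. The others kept it in 2 to 4 libraries, so that their order was within the spread between libraries.

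The other 59 genes of the pathway, listed by role, gave 0 calls in limma, 0 at an unadjusted p under 0.05, and 0 whose groups did not overlap. With the replicate block there were again 0 calls, while 6 of the 59 (10.2%) had an unadjusted p under 0.05 in limma, beside 5.37% of all genes, and 14 (23.7%) in DESeq2, beside 5.59%. Without the block, but leaving out CharmeKO 1, limma gave 6 such genes of the 59, beside 458 of the 15666 genes tested there. Leaving out WT 2 gave 3 of the 59, beside 182 of 15726. The 59 genes were lower in CharmeKO for 42 and higher for 17, where 49.6% of all genes were lower, with a median log2 fold change of -0.16. Of the 59, 13 (22.0%) were lower within all 3 numbers, beside 14% of all genes, and 6 (10.2%) were higher within all 3, beside 16.4%. Among 14 genes that process or activate the latent complex 8 were lower, and the gene with the lowest p was *Itgav*, the alpha-V integrin subunit that binds latent TGF-beta. It had 20323, 14355 and 26394 normalised reads in WT and 15203, 11471 and 16722 in CharmeKO (log2 fold change -0.47, SE 0.284, limma unadjusted p = 0.147). *Itgav* was lower in CharmeKO within each number, but CharmeKO 3 and CharmeKO 1 lay within the WT range and CharmeKO 2 below it.

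Among the 7 matrix anchors of latent complexes (fibrillins, fibronectin and their partners) 6 were lower, with a median of -0.29. *Fbln5*, fibulin-5 of elastic fibres, had 12860, 10282 and 13034 normalised reads in WT and 12309, 7355 and 3993 in CharmeKO (log2 fold change -0.75, SE 0.402, limma unadjusted p = 0.107). The gap was largest in number 3, and CharmeKO 1 lay among the WT libraries. Of the 4 ligand-binding proteoglycans 2 were lower, and *Dcn*, decorin, had 21129, 38799 and 14149 normalised reads in WT and 25719, 98888 and 23395 in CharmeKO (log2 fold change 0.79, SE 0.647, limma unadjusted p = 0.266). *Dcn* was higher in CharmeKO within each number, with overlapping groups. CharmeKO 2 stood far above the rest, and *Dcn* is also 1 of the 8 fibroblast markers.

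Among the 11 accessory receptors and receptor regulators 7 were lower, with a median of -0.04, and *Vasn*, vasorin, a TGF-beta-binding membrane protein, had 7416, 4025 and 4845 normalised reads in WT and 8545, 4799 and 7060 in CharmeKO (log2 fold change 0.33, SE 0.310, limma unadjusted p = 0.319). The CharmeKO library was above the WT library of the same number each time, with overlapping groups. Of the 11 Smads and Smad regulators 10 were lower, with a median of -0.16. The exception was *Smad3* at 0.04, named after its value was seen. *Skil*, which encodes the Smad co-repressor SnoN, had the lowest p of the 59 genes in limma without a block. It had 3921, 2948 and 3445 normalised reads in WT and 3113, 2367 and 1662 in CharmeKO. The level was lower in CharmeKO within each number. CharmeKO 2 and CharmeKO 3 lay below all WT libraries, and the log2 fold change was -0.57 (SE 0.260, limma unadjusted p = 0.0680).

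Of the 12 target genes 9 were lower, with a median of -0.55. *Nox4*, the NADPH oxidase that TGF-beta induces in fibroblasts, had 515, 274 and 542 normalised reads in WT and 455, 272 and 163 in CharmeKO (log2 fold change -0.64, SE 0.460, limma unadjusted p = 0.210). Its values hardly differed within number 2 and differed most within number 3. The 5 targets (41.7%) that were lower within all 3 numbers, beside 14% of all genes, were *Acta2*, *Tagln*, *Itga11*, *Lox* and *Nox4*. Their log2 fold changes were -1.60, -1.66, -1.12, -0.46 and -0.64. Within number 1 the differences were only -0.10, -0.02, -0.28, -0.07 and -0.18 in the same order, and that of *Nox4* was -0.01 within number 2. The 3 targets with a limma log2 fold change above 0 were *Col1a1* (0.16), *Timp1* (0.23) and *Tgfbi* (0.09). These targets were named after their values were seen. The direction of *Tgfbi* changed with the method, being -1.23 in DESeq2 and in edgeR without the block. Its differences within numbers 1, 2 and 3 were 0.46, -2.97 and 2.77. *Acta2* and *Tagln* are contractile genes that smooth muscle cells share. The smooth muscle and pericyte marker sum was highest in WT 3 (625 CPM, of which *Cnn1* gave 346.5), though *Rgs5*, *Kcnj8* and *Abcc9* were highest in WT 2. The part of these markers in the values of *Acta2* and *Tagln* was not tested.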

How the data were processed

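RNA-seq libraries from cultured CFs (3 WT, 3 CharmeKO) were prepared by the authors from poly(A) RNA with a directional kit. Reads were aligned with STAR to GRCm39 and counted per gene on Ensembl release 87, genes with few reads were removed, and counts were divided by DESeq2 size factors (the submitters' processing notes also list GRCh38). The deposited values are thus a normalised read signal. Gene coordinates given here are those of GENCODE M21 (GRCm38), joined by Ensembl identifier, not of the alignment.

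Dividing the deposited signal by what 1 read is worth in each library gave whole reads (within 1e-06) for 100% of 116676 values, and edgeR's quasi-likelihood test on them called 0 genes. One read corresponds to 0.870 to 1.10 normalised reads depending on the library, and a gene at 0 could lie at up to 3 reads (2.61 to 3.30 normalised reads). This covers counting error only. The 15948 genes with 10 or more reads in 2 or more libraries were tested with limma on log2(value + 1), with a mean-variance trend and genotype as the only term, two-sided, with Benjamini-Hochberg adjustment over all tested genes and a threshold of 0.05. Fold changes on this scale understate those of low genes. Ratios were tested by exact permutation over the 6 libraries. Each fit was tested on simulated data.

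The pairing of libraries by replicate number was checked from the deviations of the log2 values from the group means. Same-numbered libraries correlated across genes with r = 0.762, 0.514 and 0.217, above the minimum of 0.1 set for pairing, while others gave -0.643 to 0.222. The 0.222 was that of WT 2 with CharmeKO 3 and lay above the 0.217 of number 3. The check thus does not single out WT 3 as the partner of CharmeKO 3. Deviations sum to 0 within a group, so these correlations depend on each other. The numbers were taken as pairs by the minimum of 0.1, from the data and not from a stated source. All results within numbers and with the replicate block rest on this choice. Alternatives were TMM and library-total scaling, pseudocounts of 0.5 and 5, other filters, edgeR, DESeq2, a replicate block and leaving out each library.

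The members and gene lists were chosen with earlier results of these data known. The genes named are all 10 members, the gene with the lowest limma p of each of 6 pathway roles, any pathway gene past the adjusted threshold in an alternative (there was none), the 3 genes most like the member with the largest SD, and the *Charme* feature. Names outside this rule are marked. Analyses used R 4.3.3, limma 3.58.1, edgeR 4.0.16, DESeq2 1.42.0, Python 3.11.15 and matplotlib 3.10.9.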

Additional observations from a re-analysis of the deposited data

How the results depend on the processing

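Among the members, 0 passed the adjusted threshold under all 17 alternatives, and so did 0 of the 59 other pathway genes. The count over all genes was 0 in limma, 8 with the DESeq2 Wald test and 64 in DESeq2 with a replicate block (the cause was not tested). The block in limma and in edgeR called 0 genes, with 857 and 768 at an unadjusted p under 0.05. Among members, 2 of 10 had an unadjusted p under 0.05 with the block in limma (*Tgfb2* and *Ltbp4*, 5.37% of all genes) and in DESeq2 (5.59%), and 1 in edgeR. Of the 59 other pathway genes, 6, 14 and 5 did so in limma, DESeq2 and edgeR, against 0 without the block when all 6 libraries were used. For *Itgav*, *Dcn*, *Skil*, *Vasn*, *Fbln5* and *Nox4* the unadjusted limma p with the block was 0.0129, 0.0245, 0.0303, 0.0309, 0.0857 and 0.171. Each had an adjusted limma p of 0.7997. In DESeq2 with the block their unadjusted p was 0.00107, 0.0019, 0.0116, 0.0308, 0.0284 and 0.141, with adjusted p from 0.150 (*Itgav*) to 0.9997 (*Nox4*). In limma without the block, leaving out CharmeKO 1 gave 6 of the 59 and 1 member (*Tgfb2*), beside 458 of 15666 genes. The block put no member and no pathway gene past the adjusted threshold.

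*Tgfb2*, *Tgfb3*, *Tgfbr1* and *Ltbp4* kept their direction under all alternatives. *Tgfbr2* turned to 0.024 with library-total scaling. Leaving out single libraries turned *Tgfb1* (-0.12 to 0.40), *Tgfbr2* (-0.17 to 0.19), *Tgfbr3* (-0.32 to 0.85), *Ltbp1* (-1.22 to 0.19), *Ltbp2* (-1.45 to 0.99), *Ltbp3* (-0.25 to 0.45) and the log2 ratio of *Ltbp2* to *Ltbp1* (-1.11 to 1.28, below 0 without WT 1, WT 2 or CharmeKO 2).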

Other observations

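*Acvrl1*, the type I receptor ALK1, lies outside the naming rule and was chosen after its values were seen. It had 238 normalised reads in CharmeKO 3 and 2395 to 4419 in the other 5 libraries.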
